A study of Mus musculus with 6 samples.

Results

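The genes described here make, degrade and read out cyclic AMP (cAMP) in MC38 cells. They are the 61 protein-coding genes, of 52636 genes in the table, whose symbol names an adenylyl cyclase (Adcy), a cyclic nucleotide phosphodiesterase (Pde), a catalytic, regulatory or inhibitor protein of protein kinase A (Prka and Pki), an A-kinase anchoring protein (Akap), an EPAC exchange factor (Rapgef3 and Rapgef4), the stimulatory G protein alpha subunit Gnas, or the transcription factors Creb1 and Crem. The rule uses gene names and no measured value, although it was written with earlier results of these data known. MC38 (MC-38 in the labels) is a tumour line from the mouse colon, and all 6 libraries carry the M1E5 prefix in the genotype label, have the treatment "none", and were described as grown in RPMI medium with 10% serum. There were 3 libraries of the genotype M1E5 Zfx F5 and 3 of the genotype M1E5 WT. Zfx, an X-linked zinc finger transcription factor gene, was targeted with CRISPR ribonucleoprotein delivered by lipofection and the knockout was checked by PCR, per the series' design text. The title speaks of clones, while the labels name the single line F5, so any difference given here belongs to this line and cannot be told apart from a property of 1 clone.

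The libraries held 18876673 to 24241864 reads, with reads on 18656 to 19943 genes each. Zfx itself (ENSMUSG00000079509, mm10 chromosome X, 94074631 to 94123702, minus strand) stood at 125, 129 and 122 CPM (counts scaled to a library total of 1000000) in the libraries labelled Zfx F5, against 64.4, 69.7 and 68.9 CPM in WT. The targeted gene was thus 1.86-fold higher, not lower, with the Zfx F5 label (log2 difference 0.89, SE 0.042, limma adjusted p = 3.47e-18). Its level therefore does not check the label. Reads over a whole gene need not show a small deletion, and why the level was higher was not tested. Nearly all defining markers of colon epithelium were low: of 10 listed genes only Cdh1 passed the filter on low values, and Epcam, Krt19, Krt20 and Muc2 had no read in any library. The summed level of the list was 4.20 to 4.66 CPM in the libraries labelled Zfx F5 and 1.22 to 1.94 CPM in WT. Most of that gap was Krt8 and Cdh1. Krt8, below the filter, had 39, 34 and 41 reads (mean 1.79 CPM) in the libraries labelled Zfx F5 and no read in WT. Cdh1 averaged 2.10 CPM in the libraries labelled Zfx F5 and 0.848 CPM in WT. Lgals4 went the other way, with overlapping groups (0.437 CPM in the libraries labelled Zfx F5, 0.626 CPM in WT). Of 9 fibroblast markers 5 were kept, with 3 higher (Pi16, Pdgfrb and Col3a1) and 2 lower (Dcn and Pdgfra), and the list summed to 3420 to 3548 CPM in the libraries labelled Zfx F5 against 1252 to 1285 CPM in WT. Most of that sum was Col3a1, at 3334 CPM in the libraries labelled Zfx F5 and 874 CPM in WT, while Dcn was 3.53-fold and Pdgfra 3.14-fold lower. The myeloid list summed to 25.6 to 27.8 CPM in the libraries labelled Zfx F5 and 10.97 to 13.6 CPM in WT. Nearly all of that gap was Lyz2, at 15.3 CPM in the libraries labelled Zfx F5 and 0.437 CPM in WT, while Cd14 and Cd68 did not pass the test, Adgre1 had no read in any library, and Itgam had 1 read in all. Lyz2, Pi16 and Cdh1 passed the filter through the libraries labelled Zfx F5 alone, with mean log2 values in WT of -1.19, -0.91 and -0.24. The endothelial list summed to 33.9 to 39.1 CPM in the libraries labelled Zfx F5 and 12.9 to 13.9 CPM in WT. Nearly all of it was Pecam1, at 26.1 CPM in the libraries labelled Zfx F5 and 8.79 CPM in WT (2.96-fold higher), and Egfl7, at 9.70 CPM and 4.35 CPM (2.23-fold higher). Both passed the test. Cdh5 and Vwf stayed below the filter, and Kdr had 0 reads throughout. No T and NK or B cell marker was kept. The part of these shifts in the results on cAMP genes was not tested.

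In cAMP signalling, receptors coupled to the stimulatory G protein switch on adenylyl cyclases, which turn ATP into cAMP, and phosphodiesterases hydrolyse it again. Protein kinase A (PKA) is a tetramer, a dimer of regulatory subunits that each hold a catalytic subunit, and comes apart when cAMP binds the regulatory subunits. Anchoring proteins hold type I (Prkar1a, Prkar1b) or type II (Prkar2a, Prkar2b) holoenzymes at chosen places in the cell. cAMP also opens the Rap exchange factor EPAC, and PKA phosphorylates CREB, which binds cAMP response elements (CRE) in promoters. In gut epithelium cAMP is best known for driving chloride secretion.

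Of the 61 genes, 32 had a log2 value averaging 0 or more across the libraries, which is roughly 1 CPM, and were tested; 19 others had some reads and 10 had none in any library. Past an adjusted p of 0.05 lay 28 of the 32 (87.5%), where 72.9% of all 12279 genes tested did so. The 11 higher genes were 34.4% of the tested cAMP genes, against 37% of all genes, and the 17 lower ones were 53.1%, against 35.9% of all genes. With a fold of at least 1.5 required as well, 9 genes (28.1%) passed, against 24.7% of all genes, and with a fold of at least 2, 5 genes (15.6%) passed, against 10.1% of all genes. The 3 values of one group lay wholly outside those of the other for 27 of the 32 genes (84.4%), against 74.3% of all genes. The median size of the log2 difference was 0.42 for the cAMP genes and 0.31 for all genes, and the median signed difference was -0.20 for the cAMP genes and 0.02 for all genes. A call by itself is therefore common in this comparison, and the sizes and the levels carry more than the counts. Replicates were close, with a median SD over the tested cAMP genes of 0.062 log2 units in the libraries labelled Zfx F5 and 0.051 in WT. For 1 gene in 3 against 3 libraries the smallest exact permutation p is 0.1, so every adjusted p given below is from limma, fitted across all tested genes. In RNA from many cells at once, fewer cells that express a gene and less RNA per cell cannot be told apart.

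**Figure D1:**
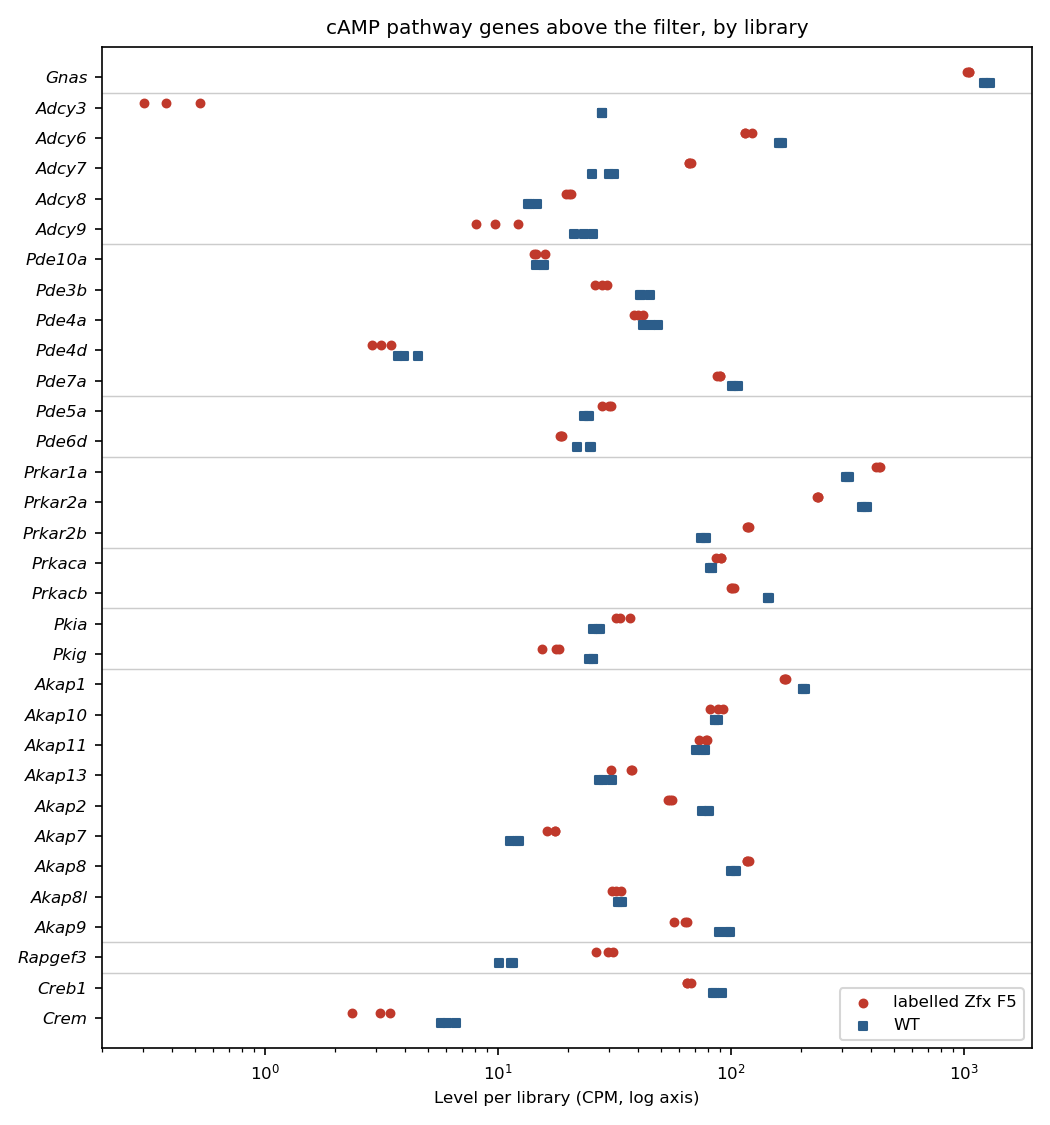
Levels of the 32 tested cAMP genes in each library, in CPM on a log axis. Round points are the 3 libraries labelled Zfx F5 and squares the 3 WT libraries, drawn just below. Adcy3 is the gene with the widest gap, under 1 CPM in each library labelled Zfx F5 and near 28 CPM in each WT library.

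Gnas, the stimulatory alpha subunit that couples receptors to the cyclases, was the most abundant gene of the group. It fell by 0.26 on the log2 scale (SE 0.028; limma adjusted p = 1.28e-09), to 1052, 1032 and 1057 CPM in the libraries labelled Zfx F5, against 1293, 1244 and 1216 CPM in WT. The groups did not overlap. Other transcripts share its exons, with 13.1% of its exon bases also annotated to Gm20721 and 8.83% to the antisense gene Nespas, which had no read.

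All 5 adenylyl cyclases that passed the filter differed between the groups, and in both directions. For comparison, 72.9% of all genes tested passed the same threshold. Adcy3, Adcy6 and Adcy9 fell and Adcy7 and Adcy8 rose. Adcy3, a cyclase that responds to calcium and calmodulin and is known from olfactory and primary cilia, nearly disappeared. It had 8, 6 and 12 reads (0.378, 0.304 and 0.527 CPM) in the libraries labelled Zfx F5, against 651, 529 and 675 reads (27.9, 28.02 and 27.8 CPM) in WT. Every library labelled Zfx F5 was far below every WT library. The log2 difference was -6.03 (SE 0.166; limma adjusted p = 5.97e-24), the 8th largest fall among the 12279 genes tested. Its mean log2 value was -1.22 in the libraries labelled Zfx F5 and 4.80 in WT, so Adcy3 passed the filter through WT alone. Over the 14 alternatives described below that tested Adcy3, its log2 difference ran from -6.22 to -4.37, so the size behind this rank depends on the processing. From pooled reads the level of Adcy3 was 68.4-fold lower in the libraries labelled Zfx F5, with an exact 95% interval of 46.5 to 105 that covers counting error only. Adcy3 lies on mm10 chromosome 12 from 4133103 to 4213525 on the plus strand (ENSMUSG00000020654), and 22.1% of its exon bases are also annotated to Cenpo. Cenpo had 15.6 CPM in the libraries labelled Zfx F5 and 11.8 CPM in WT, and whether the few reads left for Adcy3 belong to Cenpo was not tested.

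Adcy7, a cyclase stimulated by G protein beta-gamma subunits and best known from blood cells, went the other way. Its levels were 66.0, 67.5 and 66.1 CPM in the libraries labelled Zfx F5, against 30.1, 31.5 and 25.4 CPM in WT. With no overlap between the groups, this was a rise of 1.20 on the log2 scale (SE 0.063; limma adjusted p = 1.71e-14; 2.30-fold). Adcy9, a widely expressed cyclase that responds poorly to forskolin, had 8.02, 12.1 and 9.71 CPM in the libraries labelled Zfx F5 and 21.2, 25.6 and 23.5 CPM in WT. All libraries labelled Zfx F5 lay below all WT libraries (log2 difference -1.25, SE 0.134; limma adjusted p = 6.34e-06; 2.38-fold lower). Adcy6, which calcium and inhibitory G proteins restrain, was the most abundant cyclase in both groups, at 115, 115 and 123 CPM in the libraries labelled Zfx F5 and 163, 165 and 161 CPM in WT (log2 difference -0.47, SE 0.037; limma adjusted p = 1.43e-12). Adcy8, a calcium-stimulated cyclase known from brain, stood at 20.6, 19.7 and 20.1 CPM in the libraries labelled Zfx F5 and 13.8, 14.7 and 13.4 CPM in WT (log2 difference 0.53, SE 0.074; limma adjusted p = 1.65e-07). Adcy1, Adcy5 and the soluble cyclase Adcy10 had at most 4 reads in a library, and Adcy2 and Adcy4 had none.

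The family total changed less than its make-up. To compare genes of different length, CPM was divided by exon length in kilobases (CPM per kb) and summed over the cyclases. The sum was 36.3 ± 0.806 CPM per kb in the libraries labelled Zfx F5 and 44.6 ± 1.22 CPM per kb in WT (mean ± SD, n = 3 each). Within it, the share of Adcy3 was 0.220% ± 0.0587 in the libraries labelled Zfx F5 and 12.4% ± 0.295 in WT. Adcy7 made up 29.5% ± 0.718 in the libraries labelled Zfx F5 and 10.4% ± 0.932 in WT. Adcy6 remained the leading cyclase, with 54.0% ± 1.26 in the libraries labelled Zfx F5 and 60.8% ± 0.869 in WT. By this measure the order in WT was Adcy6, Adcy3, Adcy7, Adcy9 and Adcy8, with Adcy7 and Adcy9 (10.1% ± 0.777) closer to each other than their spread. Without the length correction Adcy7 (11.2% ± 0.996) and Adcy3 (10.8% ± 0.259) also lay within their spread in WT, so the order of these genes there is not firm. With the Zfx F5 label the order was Adcy6, Adcy7, Adcy8, Adcy9 and Adcy3, with the steps between neighbours larger than their SDs.

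**Figure D2:**
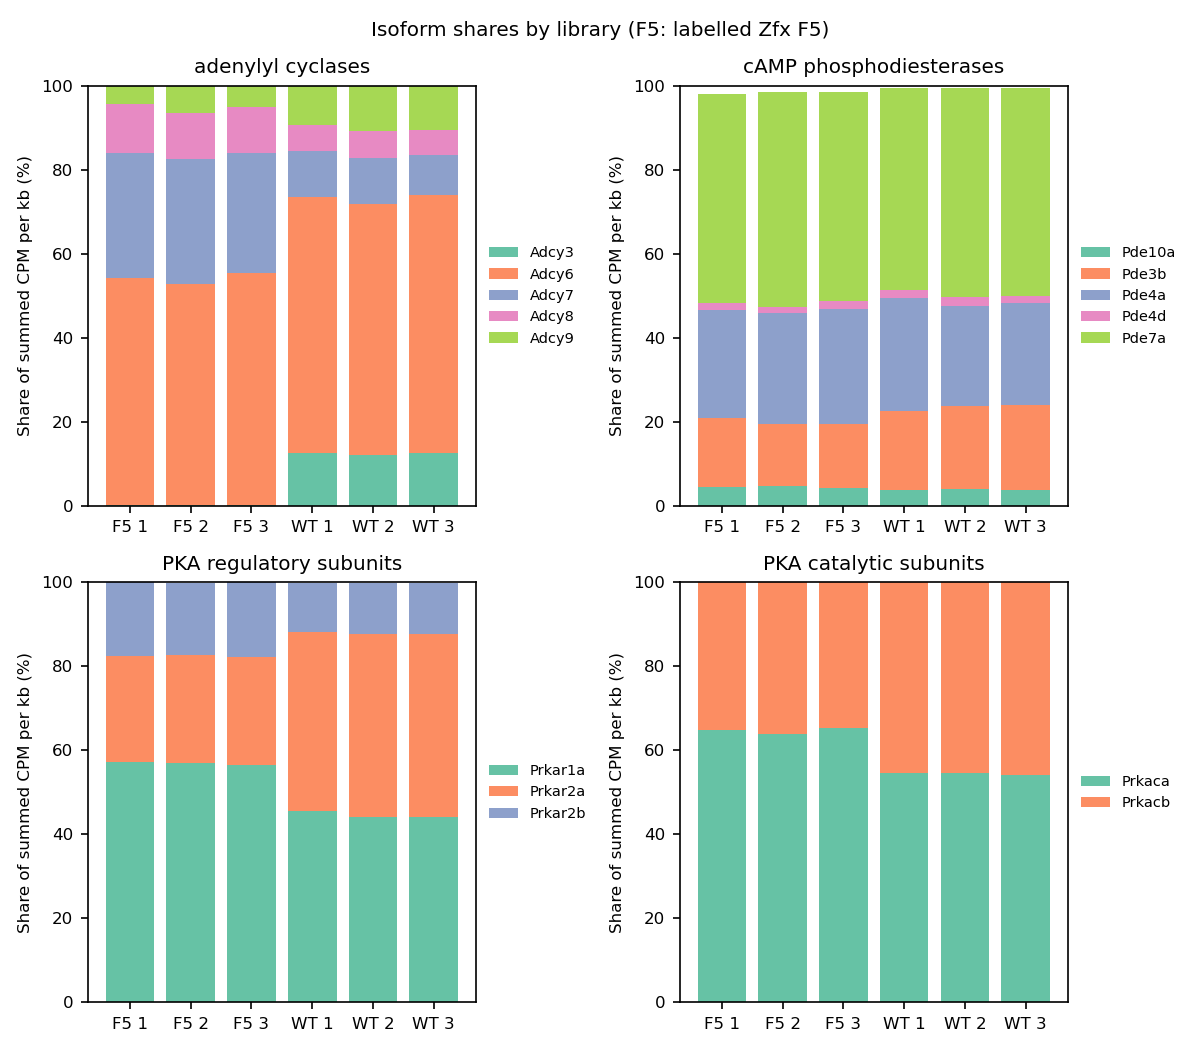
Share of each isoform in the summed CPM per kb of its family, in percent, for the 3 libraries labelled Zfx F5 (F5) at the left of each panel and the 3 WT libraries at the right. Each bar is 1 library, and what is missing to 100% belongs to family members below the filter, which are not drawn. Adcy7 fills 29.5% of the cyclase bar with the Zfx F5 label and 10.4% in WT, and Prkar2a fills 25.5% of the regulatory bar with the Zfx F5 label and 43.3% in WT.

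The genes around Adcy3 did not share the size of its fall. Of 8 other tested genes that begin or end within 500 kb of it, 2 were higher, 5 were lower and 1 did not pass. The shares over all genes tested were 37% higher and 35.9% lower. Ncoa1, a nuclear receptor coactivator gene whose nearer end lies 33837 bases beyond Adcy3, averaged 15.2 CPM in the libraries labelled Zfx F5 and 47.9 CPM in WT (3.15-fold lower), and Dnmt3a, a DNA methyltransferase gene on the other side, was 2.02-fold lower. Before Ncoa1 come Cenpo, which overlaps the end of Adcy3, and Ptrhd1, whose log2 differences were 0.41 and 0.43, and a processed pseudogene at -0.54. Dtnb (-0.34) and Itsn2 (-0.11), at the outer edges, fell by less, and Efr3b, the nearest tested gene on the upstream side, did not pass (log2 difference -0.03, SE 0.266; limma adjusted p = 0.923). The state of the DNA at this locus was not measured here.

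**Figure D3:**
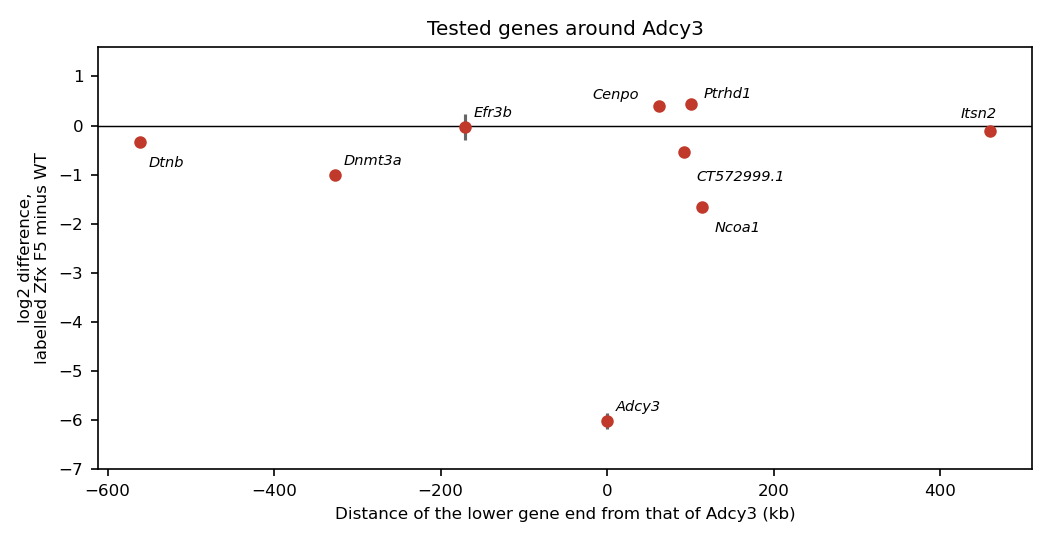
Log2 difference (libraries labelled Zfx F5 minus WT) of Adcy3 and of the 8 tested genes within 500 kb, against the distance in kb between the lower end of each gene and that of Adcy3. Points are limma estimates from 3 libraries a group and bars are 1 SE, often smaller than the point. Adcy3 lies at -6.03, and its neighbours between -1.66 and 0.43.

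The phosphodiesterases that hydrolyse cAMP were, among those tested, level or lower. Of 16 such genes 5 passed the filter, 4 of them fell, none rose and 1 did not pass the test. Over all genes tested, 35.9% were lower and 37% higher. Pde3b, an enzyme that cGMP inhibits and that acts downstream of insulin in fat, had 29.5, 26.01 and 27.9 CPM in the libraries labelled Zfx F5, against 40.6, 41.3 and 44.8 CPM in WT. The groups were apart by 0.60 log2 units (difference -0.60, SE 0.060; limma adjusted p = 1.85e-10; 1.52-fold lower). Pde7a, a cAMP-specific enzyme that rolipram does not inhibit, had the highest level per kb of the family and fell by 0.22 on the log2 scale (SE 0.040; limma adjusted p = 9.64e-06). Pde4a, of the rolipram-sensitive cAMP-specific subfamily, fell by 0.17 (SE 0.056; limma adjusted p = 0.00685), a call lost without WT replicate 1 (adjusted p = 0.0703). Pde4d, of the same subfamily, had 3.16, 2.88 and 3.47 CPM in the libraries labelled Zfx F5 and 3.94, 4.56 and 3.71 CPM in WT. Its call (log2 difference -0.35, SE 0.150; limma adjusted p = 0.0352) was lost when either WT replicate 1 (adjusted p = 0.0523), WT replicate 2 (0.155), or replicate 1 (0.0635) or 2 (0.120) of the Zfx F5 label was left out. Pde10a, which takes both cAMP and cGMP, did not pass (log2 difference -0.04, SE 0.078; limma adjusted p = 0.664), and its groups overlapped. Summed over the cAMP enzymes, the level was 27.3 ± 0.353 CPM per kb in the libraries labelled Zfx F5 and 32.6 ± 0.849 CPM per kb in WT (SD, n = 3 each). The ratio of the cyclase sum to this sum was 1.33 ± 0.0185 in the libraries labelled Zfx F5 and 1.37 ± 0.0719 in WT, and its values overlapped between the groups.

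Pde8a, a high-affinity cAMP-specific enzyme that common phosphodiesterase inhibitors spare, stayed below the filter and showed a wide difference in reads. It had 38, 22 and 29 reads (1.79, 1.11 and 1.27 CPM) in the libraries labelled Zfx F5, against 1, 0 and 0 reads in WT, where the limit that 0 reads allow is 0.159 CPM in replicate 2 and 0.124 CPM in replicate 3. Pooled, its level was 92.9-fold higher in the libraries labelled Zfx F5, with an exact 95% interval for counting error of 16.2 to 3710, and fitting all genes without the filter gave a limma adjusted p of 1.77e-20. Pde4b, a rolipram-sensitive enzyme, had 5, 4 and 6 reads in the libraries labelled Zfx F5 and 21, 24 and 24 reads in WT, a pooled level 4.41-fold lower (interval 2.50 to 8.30; limma adjusted p = 4.62e-07 without the filter). Both genes were singled out after their values were seen. The fit without the filter has its own scale: for Prkar2a its limma adjusted p was 3.43e-92, against 4.60e-18 in the main fit. Its p-values are therefore not to be set beside the others given. For Pde8a the size of the log2 difference also rests on the small value added before taking logs, since WT replicates 2 and 3 had 0 reads. Of 12 tested genes within 500 kb of Pde8a (mm10 chromosome 7, 81213596 to 81334533, plus strand) 4 were higher, 5 lower and 3 did not pass, with log2 differences of -0.76 to 0.28. Of 4 around Pde4b 2 were higher and 2 did not pass. These counts stand beside 37% higher and 35.9% lower among all genes tested. The remaining cAMP enzymes below the filter (Pde1a, Pde1b, Pde1c, Pde2a, Pde3a, Pde4c, Pde7b, Pde8b and Pde11a) had at most 6 reads in a library.

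Among the Pde genes that do not act on cAMP, Pde5a, the cGMP-specific enzyme that sildenafil inhibits, rose by 0.29 on the log2 scale (SE 0.062; limma adjusted p = 1.03e-04). Pde6d, which carries prenylated proteins between membranes and is named after the photoreceptor enzyme, fell by 0.35 (SE 0.070; limma adjusted p = 4.43e-05). The groups of neither gene overlapped. Pde6a, Pde6b, Pde6c and Pde9a had at most 3 reads in a library.

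The promoters of the genes at both ends of this range are shown because their reads differ most between the groups. The windows are from RefSeq (build GRCm38.p6, the build also called mm10) and run from 250 bases before to 50 bases after an annotated start, and capitals mark the core TGACG of the CRE on either strand, or the full palindrome TGACGTCA. The Adcy3 window, the more upstream of its windows in RefSeq, is chr12:4133147-4133446 and the Pde8a window chr7:81213015-81213314, both on the plus strand.
Adcy3: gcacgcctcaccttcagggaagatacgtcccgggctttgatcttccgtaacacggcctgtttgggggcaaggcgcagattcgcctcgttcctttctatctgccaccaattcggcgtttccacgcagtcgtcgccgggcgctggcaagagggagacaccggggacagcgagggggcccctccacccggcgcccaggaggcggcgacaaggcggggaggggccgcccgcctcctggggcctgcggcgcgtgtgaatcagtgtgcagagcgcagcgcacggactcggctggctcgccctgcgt
Pde8a: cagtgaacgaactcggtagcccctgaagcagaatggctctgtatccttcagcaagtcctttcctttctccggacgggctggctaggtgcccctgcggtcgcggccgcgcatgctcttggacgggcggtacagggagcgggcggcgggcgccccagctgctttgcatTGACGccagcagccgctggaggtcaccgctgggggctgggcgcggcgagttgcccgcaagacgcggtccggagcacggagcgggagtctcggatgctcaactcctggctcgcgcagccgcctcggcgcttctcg
The Adcy3 window holds 33 CpG and neither form of the CRE letters, and the Pde8a window holds 34 CpG and 1 core. The other Adcy3 window, chr12:4133903-4134202, holds 7 CpG and no CRE letters either. The median over all 32851 windows is 7 CpG. Neither match nor absence says anything of CREB at these genes, since binding was not measured.

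PKA itself changed in subunit make-up more than in amount. The regulatory subunits summed to 186 ± 2.15 CPM per kb in the libraries labelled Zfx F5 and 174 ± 2.05 CPM per kb in WT (SD, n = 3 each), a difference that does not hold without the length correction, where the groups overlap (784 ± 8.59 CPM in the libraries labelled Zfx F5, 768 ± 9.80 CPM in WT). Prkar2a, the RII alpha subunit, had 235, 236 and 236 CPM in the libraries labelled Zfx F5, against 364, 383 and 377 CPM in WT. Every library labelled Zfx F5 was lower than every WT library (log2 difference -0.67, SE 0.032; limma adjusted p = 4.60e-18; 1.59-fold). Prkar2b, the RII beta subunit known from fat and brain, did the opposite, with 120, 117 and 118 CPM in the libraries labelled Zfx F5 and 74.2, 78.3 and 77.8 CPM in WT. The groups did not overlap (log2 difference 0.63, SE 0.040; limma adjusted p = 5.92e-15; 1.54-fold). Prkar1a, the RI alpha subunit, whose loss in people causes Carney complex, also rose, to 438, 431 and 421 CPM in the libraries labelled Zfx F5, against 320, 317 and 313 CPM in WT (log2 difference 0.44, SE 0.031; limma adjusted p = 5.28e-14). Its share of the regulatory sum was 57.0% ± 0.479 in the libraries labelled Zfx F5 and 44.6% ± 0.882 in WT. The share of Prkar2a was 25.5% ± 0.360 in the libraries labelled Zfx F5 and 43.3% ± 0.653 in WT, near that of Prkar1a there. Without the length correction Prkar2a led in WT, with 48.8% ± 0.681 against 41.2% ± 0.861 for Prkar1a. Prkar2b made up 17.5% ± 0.197 in the libraries labelled Zfx F5 and 12.1% ± 0.241 in WT. Prkar1b, the RI beta subunit of neurons, had at most 4 reads in a library.

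The catalytic subunits, which carry the kinase activity, shifted between isoforms too. Prkacb fell to 103, 102 and 101 CPM in the libraries labelled Zfx F5, against 145, 145 and 144 CPM in WT (log2 difference -0.51, SE 0.037; limma adjusted p = 1.23e-13). Prkaca had 90.7, 86.0 and 90.8 CPM in the libraries labelled Zfx F5 and 83.2, 83.0 and 81.3 CPM in WT. This difference of 0.11 (SE 0.041; limma adjusted p = 0.0160) was small, and its call was lost without replicate 1 (adjusted p = 0.0712) or 3 (0.0688) of the Zfx F5 label, and with median-of-ratios scaling (0.0978). Together they summed to 55.4 ± 1.16 CPM per kb in the libraries labelled Zfx F5 and 60.9 ± 0.589 CPM per kb in WT. Without the length correction the sums were 191 ± 3.16 CPM in the libraries labelled Zfx F5 and 227 ± 1.90 CPM in WT. The ratio of regulatory to catalytic transcripts per kb was 3.35 ± 0.0756 in the libraries labelled Zfx F5 and 2.86 ± 0.0457 in WT (SD, n = 3 each), with no overlap. Transcript ratios do not give the ratio of the proteins.

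The heat-stable inhibitors, small proteins that block the free catalytic subunit and carry it out of the nucleus, moved in opposite directions. Pkia rose, to 33.3, 37.0 and 32.1 CPM in the libraries labelled Zfx F5, against 26.9, 27.4 and 25.6 CPM in WT (log2 difference 0.35, SE 0.062; limma adjusted p = 7.56e-06). Pkig fell, to 17.8, 18.3 and 15.5 CPM in the libraries labelled Zfx F5, against 25.6, 24.7 and 25.6 CPM in WT (log2 difference -0.56, SE 0.072; limma adjusted p = 3.44e-08). The share of Pkia in their sum per kb was 43.6% ± 1.37 in the libraries labelled Zfx F5 and 29.1% ± 1.05 in WT. Pkib had no read.

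Promoter windows of Prkar1a and Prkar2a, the regulatory subunits with the largest differences in CPM, are shown with the CRE letters in capitals. The Prkar1a window, 1 of several in RefSeq, is chr11:109650699-109650998 and the Prkar2a window chr9:108691893-108692192, both on the plus strand.
Prkar1a: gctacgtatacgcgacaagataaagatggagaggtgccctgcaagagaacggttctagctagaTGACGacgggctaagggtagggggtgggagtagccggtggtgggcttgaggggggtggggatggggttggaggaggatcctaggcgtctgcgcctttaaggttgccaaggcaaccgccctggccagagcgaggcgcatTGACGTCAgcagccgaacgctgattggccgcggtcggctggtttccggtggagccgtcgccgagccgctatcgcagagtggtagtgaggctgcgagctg
Prkar2a: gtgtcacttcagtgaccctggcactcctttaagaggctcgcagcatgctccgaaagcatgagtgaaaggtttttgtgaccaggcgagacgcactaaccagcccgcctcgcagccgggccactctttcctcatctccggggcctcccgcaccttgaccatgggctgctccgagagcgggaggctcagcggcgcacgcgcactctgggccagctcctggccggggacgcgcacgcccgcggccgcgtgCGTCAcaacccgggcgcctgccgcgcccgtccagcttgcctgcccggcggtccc
The Prkar1a window holds the full CRE palindrome, beginning 49 bases before the annotated start, and a further core upstream, and the Prkar2a window holds 1 core on the reverse strand (CGTCA). RefSeq windows were found by symbol for 49 of the 61 genes, 97 windows in all. The full palindrome lay in 2 of the 97 (2.06%), both overlapping windows of Prkar1a that hold the same site, and in 1.79% of all 32851 windows. The core lay in 22 of the 97 (22.7%) and in 20.8% of all windows, counting the cores inside palindromes. The letters AGGCCT, searched on both strands as the motif known for ZFX, lay in 9 of the 97 (9.28%) and in 10.3% of all windows. Counted by gene, with any window of the gene taken, the core was in 18 of the 49 (36.7%) and in 23.1% of all genes, AGGCCT in 8 (16.3%) and in 11.6%, and the palindrome in 1 (2.04%) and in 2.03%. Genes with more windows have more chances of a match, and these shares were not tested.

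**Figure D4:**
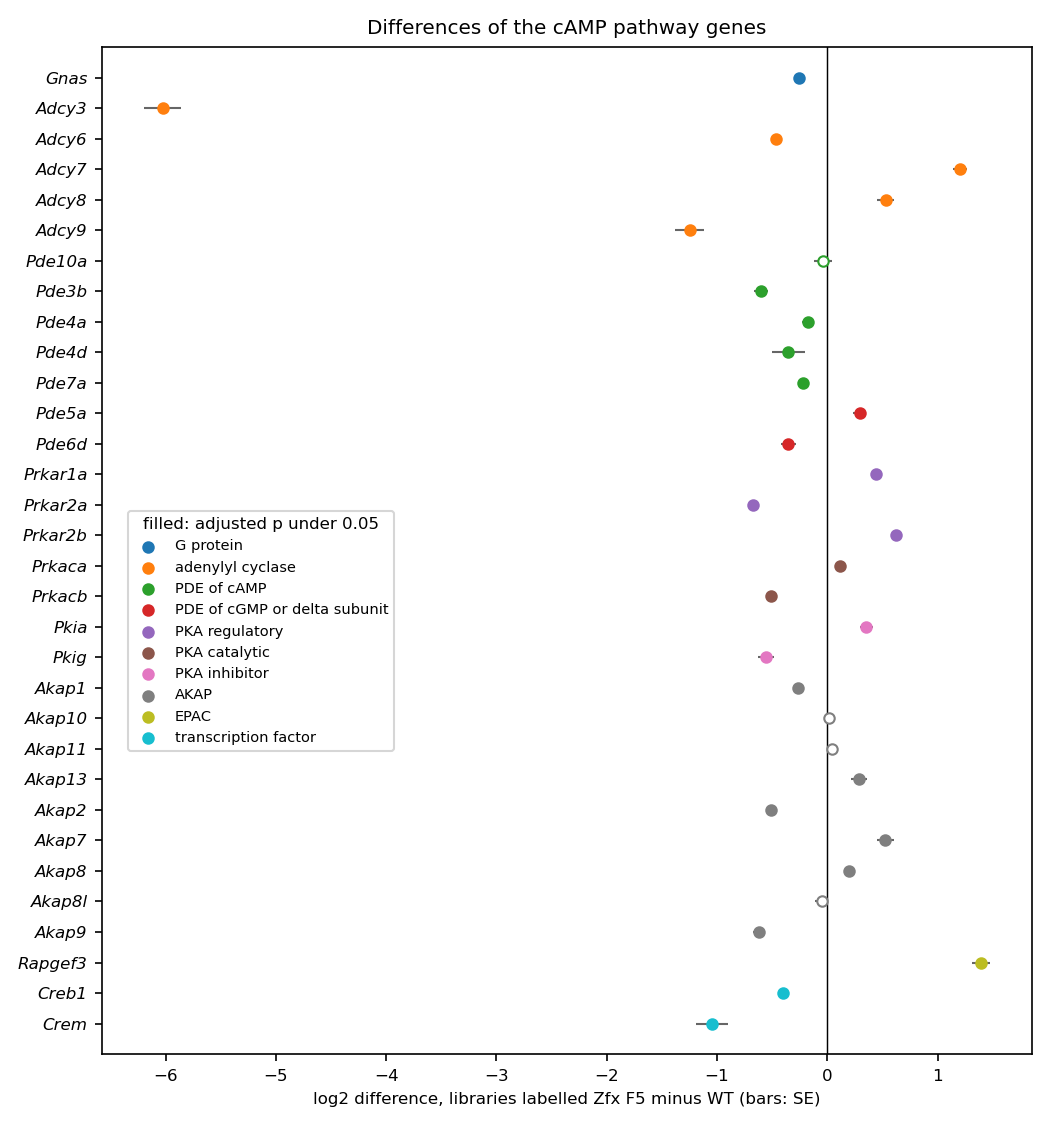
Log2 difference (libraries labelled Zfx F5 minus WT) of each of the 32 tested cAMP genes, with 1 SE from limma and 3 libraries a group. Colours give the role, and filled points passed an adjusted p of 0.05. Cyclases, regulatory subunits, inhibitors and anchoring proteins each have members on both sides of 0, and the tested cAMP phosphodiesterases do not lie above it. Among all genes tested, 37% passed as higher and 35.9% as lower.

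Anchoring proteins hold PKA near its substrates. Of 15 Akap genes 9 were tested, with 3 higher, 3 lower and 3 that did not pass, and their median log2 difference was 0.01. Among all genes tested, 37% were higher and 35.9% lower, and the median was 0.02. Akap9, the large centrosome and Golgi anchor, had 57.1, 63.6 and 64.7 CPM in the libraries labelled Zfx F5, against 89.0, 99.1 and 96.7 CPM in WT. All 3 libraries labelled Zfx F5 were below the WT libraries (log2 difference -0.62, SE 0.050; limma adjusted p = 1.40e-11; 1.54-fold). Akap2, an actin-linked anchor, fell by 0.51 (SE 0.045; limma adjusted p = 1.13e-11), and 84.4% of its exon bases are also annotated to Pakap, which is at 0 reads, so the reads of these models cannot be told apart. Akap1, which anchors PKA at the mitochondrial outer membrane, fell by 0.27 (SE 0.034; limma adjusted p = 2.37e-08) and had the highest level per kb among the anchoring proteins in both groups.

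Akap7, a small membrane anchor known from ion channel control, rose by 0.53 log2 units (SE 0.080; limma adjusted p = 7.44e-07), with 16.2, 17.7 and 17.6 CPM in the libraries labelled Zfx F5 and 12.1, 11.2 and 12.4 CPM in WT. The nuclear anchor Akap8 rose by 0.19 (SE 0.038; limma adjusted p = 3.78e-05). Akap13, which is also a guanine nucleotide exchange factor, rose by 0.29 (SE 0.073; limma adjusted p = 0.00128), although its lowest library labelled Zfx F5 (30.7 CPM) lay below its highest WT library (30.9 CPM). Akap10, an anchor for both RI and RII, did not pass (log2 difference 0.01, SE 0.045; limma adjusted p = 0.807). Akap11, which binds glycogen synthase kinase and directs RI alpha to autophagy, did not pass either (0.05, SE 0.045; limma adjusted p = 0.376), but did with quantile normalization (adjusted p = 0.0193). Akap8l, a relative of Akap8, missed the threshold as well (-0.05, SE 0.057; limma adjusted p = 0.441). The sum over the anchoring proteins was 133 ± 0.972 CPM per kb in the libraries labelled Zfx F5 and 141 ± 0.924 CPM per kb in WT (SD, n = 3 each).

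Just below the filter lay Akap3, a protein of the sperm tail sheath, with a mean log2 value of -0.22, while the lowest tested genes were Adcy3 (1.79), Pde4d (1.85) and Crem (2.10). Akap3 had 26, 29 and 34 reads in the libraries labelled Zfx F5 and 9, 10 and 13 reads in WT, a pooled level 2.90-fold higher (interval 1.92 to 4.49; limma adjusted p = 6.53e-06 without the filter). Like those of Pde8a and Pde4b, this p of Akap3 is not on the scale of the main fit. Akap5, the postsynaptic anchor, had 8, 11 and 9 reads in the libraries labelled Zfx F5 and 9, 4 and 9 reads in WT, which overlap. Akap6, Akap12 and Akap14 had at most 5 reads in a library, and Akap4 had none.

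Rapgef3, which encodes EPAC1, the exchange factor that activates Rap when cAMP binds, had the largest rise among the 32 tested cAMP genes. It stood at 29.8, 26.4 and 31.2 CPM in the libraries labelled Zfx F5, against 11.6, 11.4 and 10.1 CPM in WT. With the groups far apart, the log2 difference was 1.39 (SE 0.078; limma adjusted p = 2.85e-16; 2.63-fold). Its relative Rapgef4 (EPAC2) had at most 7 reads in a library. Of the transcription factors, Creb1 fell by 0.40 on the log2 scale (SE 0.044; limma adjusted p = 1.54e-09), to 64.8, 67.6 and 65.1 CPM in the libraries labelled Zfx F5, against 85.5, 84.0 and 91.3 CPM in WT. Crem, which makes both activators and the inducible repressor ICER, was expressed at a few CPM, with 3.11, 3.44 and 2.37 CPM in the libraries labelled Zfx F5 and 6.03, 5.72 and 6.60 CPM in WT. Its groups did not overlap (log2 difference -1.05, SE 0.147; limma adjusted p = 1.87e-07; 2.06-fold lower), and reads per gene do not separate its activator and repressor forms.

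Further genes of the pathway were taken from 8 lists by role, whose counts are read against the 72.9% of all tested genes that passed. Of 40 genes for receptors coupled to the stimulatory G protein and their accessory Ramp proteins only 6 were tested, and 18 had no read. Of the tested genes 3 were higher and 2 lower, all receptors, and the accessory gene Ramp3 did not pass. Calcrl, the receptor for adrenomedullin and CGRP, was 6.04-fold higher (10.2, 9.26 and 8.92 CPM in the libraries labelled Zfx F5, against 1.80, 1.32 and 1.53 CPM in WT; limma adjusted p = 4.38e-16). Vipr2, a receptor for vasoactive intestinal peptide, was 3.64-fold lower (18.3, 19.1 and 18.9 CPM in the libraries labelled Zfx F5, against 65.4, 69.3 and 70.0 CPM in WT; limma adjusted p = 2.08e-23). Their groups lay far apart. Gpr3, a receptor with high activity in the absence of ligand, was 3.13-fold lower, and Adora2b, an adenosine receptor, was 2.05-fold higher.

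Of 16 tested genes for other G protein alpha subunits and their regulators, 6 were higher, 7 lower and 3 did not pass. Gnao1, an inhibitory-class subunit known from neurons, was 17.1-fold higher, with 19.96, 21.8 and 22.8 CPM in the libraries labelled Zfx F5 and 1.54, 0.954 and 1.24 CPM in WT (limma adjusted p = 2.03e-20). Rgs16, which speeds the turn-off of inhibitory-class and Gq-class subunits, was 5.39-fold lower, with 27.4, 24.7 and 25.5 CPM in the libraries labelled Zfx F5 and 142, 139 and 137 CPM in WT (limma adjusted p = 5.79e-28). Each of these genes separated the groups completely. Gnaz was 2.34-fold higher and Gnai1 2.33-fold lower, both of the inhibitory class.

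Among 12 relatives, coactivators and regulators of CREB, 5 were higher, 6 lower and 1 did not pass. Crtc3, a coactivator that enters the nucleus when cAMP rises, was 4.06-fold lower, with 26.2, 25.8 and 26.2 CPM in the libraries labelled Zfx F5 and 106, 108 and 104 CPM in WT (limma adjusted p = 3.87e-26). Crtc2 (1.82-fold), the CRTC kinase Sik2 (1.76-fold) and Creb5 (1.71-fold) were lower as well. Of 24 tested genes known as CREB targets in various cells, 13 were higher, 6 lower and 5 did not pass (79.2% called, with a median log2 difference of 0.33 against 0.02 for all genes). Areg, an EGF receptor ligand, was 11.1-fold lower, with 0.566, 0.709 and 0.747 CPM in the libraries labelled Zfx F5 and 7.83, 7.20 and 8.42 CPM in WT (limma adjusted p = 5.75e-17). Its values with the Zfx F5 label lay below the filter level, so Areg passed the filter through WT alone. Vgf, a secreted neuropeptide precursor (2.58-fold), Id2, an inhibitor of helix-loop-helix factors (2.48-fold), and Per2, a clock repressor (2.21-fold), were higher.

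The list of other cAMP effectors and export also holds Rap proteins, further Rap exchange factors and a ubiquitin ligase, so it does not stand for cAMP effectors as a class. Of its 12 tested genes, 10 were lower, 1 was higher (Rapgef6, an exchange factor for Rap) and 1 did not pass, beside 35.9% lower and 37% higher among all tested genes. Their median log2 difference was -0.59, against 0.02 for all genes. The pacemaker channels Hcn2 (2.81-fold) and Hcn3 (2.19-fold), which cAMP modulates, and Pja2, a ubiquitin ligase that targets PKA regulatory subunits (1.77-fold), were lower. Of 12 tested anchoring proteins with other names, 4 were higher, 6 lower and 2 did not pass: Nbea (1.80-fold) and Arfgef2 (1.67-fold), both of vesicle traffic, were lower, and Wasf1, an actin regulator (1.69-fold), and Akap17b (1.56-fold) were higher. All 3 tested genes of the cGMP side were lower, namely Gucy1a2, a subunit of soluble guanylyl cyclase (5.66-fold), Npr3, the natriuretic peptide clearance receptor (4.96-fold), and the cGMP-dependent kinase Prkg2 (1.5-fold). Of 13 tested phosphatases, kinases and other regulators of these signals 5 were higher, 7 lower and 1 did not pass. Grk5, a receptor kinase (1.67-fold), and Pcif1, an mRNA cap methyltransferase (1.42-fold), were higher, and the calcineurin genes Ppp3ca (1.49-fold) and Ppp3r1 (1.43-fold) were lower.

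**Figure D5:**
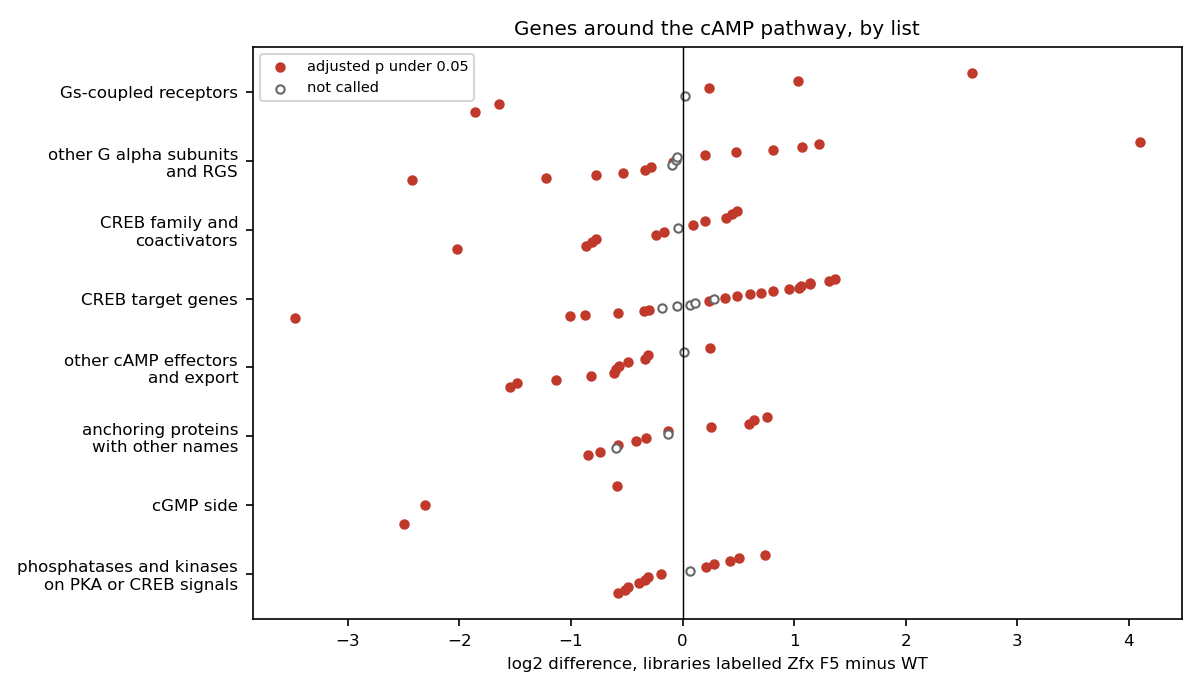
Log2 difference (libraries labelled Zfx F5 minus WT) of the tested genes of the 8 pathway lists, 1 point a gene and 1 line a list. Filled colour marks genes past an adjusted p of 0.05. The mixed list of other cAMP effectors and export has 10 of its 12 tested genes below 0 and past the threshold, and Gnao1 (17.1-fold higher) and Areg (11.1-fold lower) are the outermost points. Areg passed the filter through WT alone.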

How the data were processed

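RNA sequencing gave 6 libraries, 3 labelled Zfx F5 and 3 WT. The authors deposited log2 values of normalized expression for 52636 genes. From the values themselves these are log2(CPM + 0.0353), where the floor of -4.82 is the log2 of 0.0353. Taken out of log2 and less this 0.0353, each column sums to 1000000 CPM. Dividing by the value of 1 read gave whole numbers (tolerance 0.05, checked below 300 reads) in 100% of cases, which are the reads quoted here. 0 sample columns were left unused. Per the submitters' processing notes the builds were GRCh38 and mm10. The sources used here name no aligner or counter. The series' design text speaks of cultured cells and 1 µg of RNA, the labels' extract protocol of sorted tumour cells and Nextera XT, which does not mark strand, so antisense partners cannot be separated if it was used. Positions and exon overlaps are from GENCODE M21, with 52489 identifiers matched.

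The comparison used limma 3.58.1 in R 4.3.3, with a variance trend and robust moderation, on genes with a mean log2 of at least 0, 2-sided, with Benjamini-Hochberg adjustment at 0.05 over all of them. It was also run on simulated counts in which few genes changed and all shared the same dispersion. Most tested genes differ here, so that run does not measure its error in this comparison. Folds are on the log2(CPM + 0.0353) scale and understate changes of low genes. Pooled ratios have exact Clopper-Pearson 95% intervals for counting error only; 3 reads, the limit that a count of 0 allows, are 0.124 to 0.159 CPM. Replicates were numbered in accession order and pair nothing, and nothing says that they were separate cultures, so p-values measure the spread between libraries. Genes and lists were chosen with earlier results of these data known. Every tested cAMP gene is named, with values per library at 1.5-fold or more, and from each list up to 4 called genes with the largest differences, of which 1 is not reported here. The alternatives were other filters, scalings, models and a pseudocount, and leaving out each library.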

Additional observations from a re-analysis of the deposited data

How the results depend on the processing

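Over 15 alternatives (other filters, scalings, pseudocount and moderation, and leaving out each library), the count of higher cAMP genes was 10 to 13 and of lower ones 15 to 17, and all genes called numbered 8078 to 10017. Adcy3 and Pde4d were not tested under the stricter filter, a mean log2 of at least 2, so 14 alternatives cover each of them. No called cAMP gene changed sign. Besides the lost calls of Pde4a, Pde4d and Prkaca given with their leave-one-out values, Pde4a was lost without trend and robust moderation (adjusted p = 0.0524) and Pde4d with no filter (0.0653) and with median centring (0.0505). Without length correction, 16 family sums, shares and ratios moved by more than the SD between replicates. The median log2 difference of all tested genes was 0.02, and -0.01 to 0.05 under the scaling alternatives. Depth limits the genes below the filter, and reads per gene do not separate isoforms. No paired analysis was possible because the labels give no replicate numbers.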
